A study of Mus musculus with 3 samples.

Results

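Haemoglobin and red cell genes were examined in whole hippocampus from C57BL/6 mice of wild-type genotype, taken on postnatal day 14. The members were chosen by gene symbol: the adult alpha globin genes Hba-a1 and Hba-a2, the adult beta globin genes Hbb-bs and Hbb-bt, and the red cell genes Alas2, Slc4a1, Ahsp and Klf1. Of these 8, 7 had a row in the deposited table of 39377 rows, and Ahsp was not analysed here. Total RNA of the whole tissue, with its mixed cell types, was sequenced as read pairs of 150 bases in 3 libraries, here called 1, 2 and 3. All 3 belong to 1 group without treatment, so there was no condition to compare, and genes were compared with each other inside the same libraries. Separate animals are not stated for the 3 libraries. Each p-value therefore measures their spread alone, and that spread may be technical. The labels also do not say whether blood was flushed from the brain before dissection.

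Adult haemoglobin is a tetramer of paired alpha and beta chains, each holding a haem group that binds oxygen. Red cell precursors make the chains in blood-forming tissue under transcription factors such as GATA1 and KLF1, while ALAS2 starts haem synthesis and the SLC4A1 anion exchanger is placed in the membrane. Reticulocytes, the young red cells in the circulation, have lost their nucleus but still carry globin mRNA. Globin transcripts have also been described in some neurons and glia, so a whole-tissue level does not name its source.

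The values are FPKM, fragment counts scaled by a transcript length in kilobases and by mapped fragments in units of 1000000, and SDs are over n = 3 libraries. Values above 0 were found for 19046 rows, and 13336 reached the minimum for a test, a mean of 1 FPKM. Low FPKM values step by whole fragments, which gave depths of about 3660000, 4095000 and 5850000 fragments. The fit of these depths took 274, 220 and 232 bases off each transcript length, so the length used may be shorter than the transcript. Between libraries, log2(FPKM + 1) correlated across genes at r = 0.967 to 0.971, and genes are not independent replicates. The libraries also differed in Ttr, a choroid plexus gene, which stood at 391.81, 1070.95 and 1295.71 FPKM in libraries 1, 2 and 3.

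The alpha globin genes lie on the plus strand of chromosome 11 in GRCm38.p6, Hba-a1 from 32283672 to 32284486 and Hba-a2 from 32296492 to 32297310, with starts 12.82 kb apart. The beta globin genes lie on the minus strand of chromosome 7, Hbb-bt from 103812524 to 103813923 and Hbb-bs from 103826523 to 103827928, with starts 14.0 kb apart. All 4 have 3 exons. The sequences before their starts, from RefSeq on GRCm38.p6, are shown because the 4 rows were detected together while their coding sequences are near copies within each chain. Each runs 5′ to 3′ on the strand of its gene from 220 bases before the start to the base before the main GENCODE transcript begins. Capitals mark 4 short motifs, searched on both strands. The CACCC box is a site that Krüppel-like factors such as KLF1 bind. The letters GATAA form a core bound by erythroid zinc finger factors of that name. The CCAAT box and the core TATAA, the TATA box, are common before the starts of mammalian genes.
Hba-a2, chr11:32296272-32296488, plus strand: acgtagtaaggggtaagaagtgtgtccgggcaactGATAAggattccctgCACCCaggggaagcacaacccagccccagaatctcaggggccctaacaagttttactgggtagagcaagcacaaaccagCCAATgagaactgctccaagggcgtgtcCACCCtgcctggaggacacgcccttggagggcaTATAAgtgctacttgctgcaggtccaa
Hbb-bs, chr7:103827929-103828148, minus strand: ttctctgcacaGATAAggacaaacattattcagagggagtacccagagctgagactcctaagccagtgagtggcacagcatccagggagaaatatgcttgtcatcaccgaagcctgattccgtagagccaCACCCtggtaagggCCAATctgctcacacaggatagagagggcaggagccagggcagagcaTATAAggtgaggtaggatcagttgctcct
Hbb-bt, chr7:103813997-103814143, minus strand: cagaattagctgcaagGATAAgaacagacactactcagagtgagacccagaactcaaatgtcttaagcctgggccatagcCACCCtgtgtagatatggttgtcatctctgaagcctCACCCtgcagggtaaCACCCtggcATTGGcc

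In Hba-a2 the TATA box began 30 bases before the start, the nearer CACCC box at 63 bases and the CCAAT box at 91 bases. In Hbb-bs the order differed, with the CCAAT box at 76 bases lying nearer to the start than the CACCC box at 90 bases. The Hbb-bt stretch stops 74 bases before the RefSeq start, and its TATA box at 28 bases lay beyond the printed part. Its CCAAT box at 75 bases is cut by that end and so is not in capitals. The capitals ATTGG at 80 bases are a match on the other strand. The 250 bases before Hba-a1 and Hba-a2 shared an unbroken run of 247 bases, whereas those of Hbb-bs and Hbb-bt were 69.3% identical. The Hba-a1 stretch is not printed because it had only 59 bases before its main GENCODE transcript began. The TATA box of Hba-a1 at 27 bases and its CCAAT box at 88 bases before the RefSeq start lay within that transcript. All 4 motifs were found before each of the 4 globin genes. They occurred together before 0.968% of 32851 annotated starts, searched over the same 250 bases, and singly before 22.6% to 52.0% of them, the CACCC box being the most frequent. These matches describe letters, and binding was not measured.

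The adult globin genes were abundant in this brain tissue, and the beta chain gene Hbb-bs led them. Hbb-bs was at 544.56, 657.33 and 503.75 FPKM in libraries 1, 2 and 3, a mean of 569 ± 79.6, and ranked 187 among all rows. Library 2 was the high one, and its interval for counting error, 619 to 697 FPKM, did not overlap those of library 1 (505 to 587) or library 3 (475 to 534). These exact 95% Poisson intervals rest on about 706, 1098 and 1167 estimated fragments and cover counting error alone.

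Hba-a2, an alpha chain gene, was at 273.35, 253.99 and 238.02 FPKM, a mean of 255 ± 17.7 and rank 405. Hba-a1, its near copy, was at 98.40, 107.66 and 103.26 FPKM, a mean of 103 ± 4.63 and rank 958. The libraries lay close together for both, with the highest value 1.15 times the lowest for Hba-a2 and 1.09 times for Hba-a1. Hbb-bt, the other adult beta chain gene, was at 33.64, 41.21 and 39.83 FPKM, a mean of 38.2 ± 4.03 and rank 2589. Its lowest value, in library 1, rested on about 53 fragments, with a counting interval of 25.3 to 44.2 FPKM that overlapped those of the other libraries.

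The 4 rows summed to 949.95, 1060.19 and 884.86 FPKM, a mean of 965 ± 88.6. By mean level the nearest single rows above this sum were the long noncoding RNA Rian at 976 ± 95.9 FPKM and the neuronal microtubule regulator Stmn3 at 971 ± 18.4. The nearest below were the imprinted neuronal gene Nnat at 947 ± 50.6 and the calmodulin gene Calm3 at 935 ± 43.6. These distances are smaller than the SD of the globin sum, so its place among them is not resolved.

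**Figure D1:**
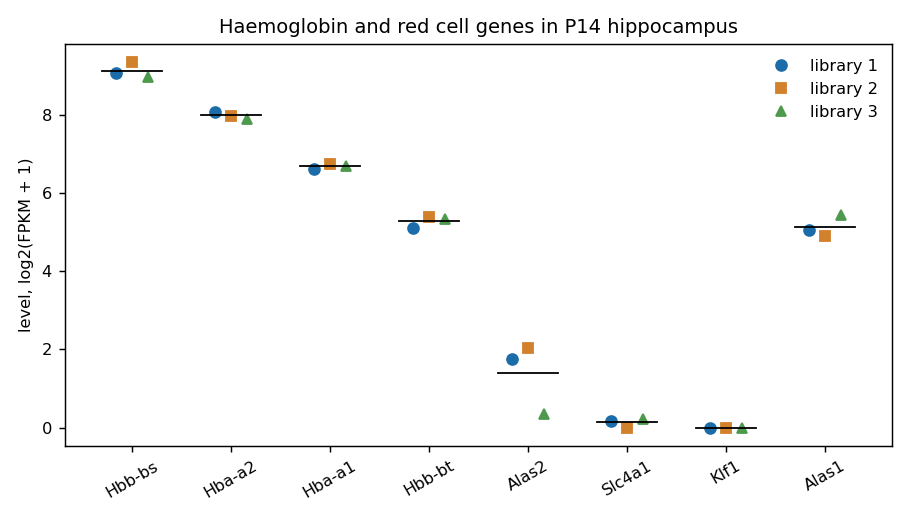
Level of each member with a row in the table, and of Alas1, as log2(FPKM + 1) by gene; points are the 3 libraries and bars their means. The 4 adult globins stand far above Alas2, Slc4a1 and Klf1, and Alas2 in library 3 lies far below its other values.

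The order of the rows was compared by a test on log2(FPKM + 1). The difference of each gene to Hbb-bs was formed within each library and tested with limma against a null of at most 2-fold, with Benjamini-Hochberg adjustment over all 13336 rows. Of these, 12872 (96.5%) were lower than Hbb-bs and 49 (0.367%) higher, so a lower member is what nearly all rows give. Since all differences share the values of Hbb-bs, limma gave those of the 4 other members tested 1 common SE of 0.225, and its p-values are too small. Differences to each other reference used here, the beta sum, Hba-a2 and Alas1, also share its values, so their moderated p-values carry the same limit. Of these references, only Alas1 gave the genes named 1 common SE, 0.259. The p-values printed for this comparison therefore use the spread of each row alone, an alternative chosen after the data were seen.

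Hba-a1 minus Hbb-bs was -2.44 log2 units (SE 0.0936, limma adjusted p = 0.00321 without moderation). Hbb-bt minus Hbb-bs was -3.86 log2 units (SE 0.114, limma adjusted p = 0.00209 without moderation). Both were lower in 3 of 3 libraries, and limma's moderated test called both as well. Hba-a2 minus Hbb-bs was -1.15 log2 units (SE 0.114) and was not shown to differ by more than 2-fold (limma adjusted p = 0.170 without moderation, 0.265 with it). The order Hbb-bs, Hba-a2, Hba-a1, Hbb-bt held in each library.

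Alpha and beta rows were then compared as sums, because reads can be shared by the near copies within a chain. No stretch of 50 bases was common to the main transcripts of Hba-a2 and Hbb-bs. A sum removes the effect of reads moved between copies, but not of shared reads dropped or counted more than once. The alpha rows summed to 371.75, 361.65 and 341.28 FPKM, a mean of 358 ± 15.5. The beta rows summed to 578.20, 698.54 and 543.58 FPKM, a mean of 607 ± 81.3. Beta was higher in 3 of 3 libraries, by 1.56, 1.93 and 1.59 times, and the groups of values did not overlap.

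The mean ratio of beta to alpha was 1.69 ± 0.207 (SD, n = 3), and alpha made up 37.3% ± 2.75 of the sum. On the log2 scale alpha minus beta was -0.75 (SE 0.186), which was not shown to exceed 2-fold (limma adjusted p = 0.923). Against a null of no difference the same value passed (limma adjusted p = 0.000153, or 0.0173 without moderation), and 96.9% of 13338 rows were lower than the beta sum in the main test. Library 2 stood apart through Hbb-bs: its alpha sum lay between those of the other libraries. The main transcripts of the 4 genes have only 554 to 703 bases, and FPKM of such short transcripts depends strongly on the length used, which is not given in the sources used here. A difference under 2-fold in FPKM therefore need not be one in transcript number.

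**Figure D2:**
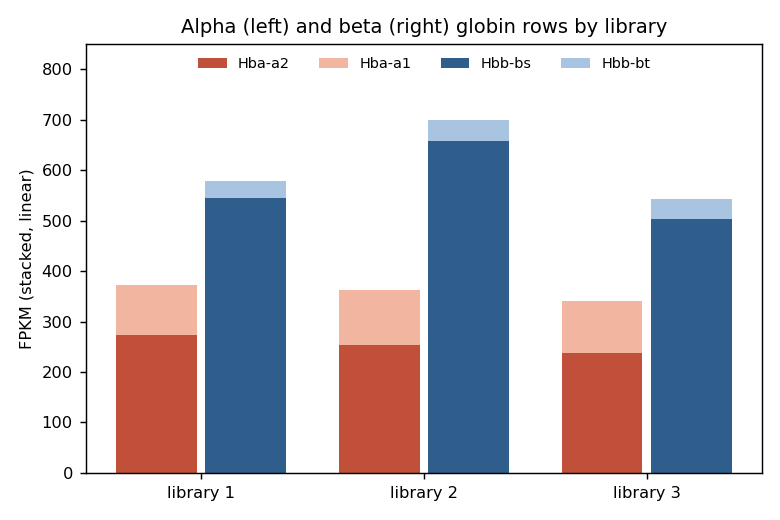
FPKM of the alpha rows (left bar of each pair, Hba-a2 and Hba-a1 stacked) and beta rows (right bar, Hbb-bs and Hbb-bt stacked) in each library, on a linear axis from 0. The beta bar is the higher in each library, by 1.56, 1.93 and 1.59 times.

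Within each chain the 2 copies differed in FPKM although their coding sequences were almost the same. Hba-a1 and Hba-a2 were identical at 425 of 426 coding bases, and Hbb-bs and Hbb-bt at 440 of 441. Hba-a2 was 2.78, 2.36 and 2.31 times Hba-a1 in the 3 libraries and carried 71.2% ± 2.06 of the alpha sum. Hbb-bs was 16.2, 15.95 and 12.6 times Hbb-bt, which carried 6.35% ± 0.849 of the beta sum.

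Hba-a1 minus Hba-a2 was -1.30 log2 units (SE 0.113) and passed the test against a 2-fold null (limma adjusted p = 0.0218, or 0.0391 without moderation), as did 93.1% of 13336 rows. The call was lost without library 1 (limma adjusted p = 0.0797) and without library 2 (limma adjusted p = 0.0553), at differences of -1.21 and -1.33. Reads can be shared by the copies: 48.4% of the 150-base windows of the main Hba-a1 transcript were found in that of Hba-a2, and 65.7% the other way. For Hbb-bs and Hbb-bt these shares were 58.7% and 50.7%. How shared reads were assigned is not given in the sources used here, so the levels of single copies are uncertain. The sums per chain are uncertain too if shared reads were dropped or counted more than once. FPKM also depends on the length used, and the main transcripts of Hba-a1 and Hba-a2 have 699 and 554 bases. Taken with these lengths, the 3 libraries held about 153, 211 and 282 fragments of Hba-a1 and 280, 347 and 448 of Hba-a2. That gap is smaller than the one in FPKM, and the part of length in it was not tested.

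The red cell genes outside the globin clusters were near or at 0. Alas2, on the X chromosome from 150547417 to 150570622, encodes the erythroid form of the enzyme that starts haem synthesis, and was at 2.38, 3.13 and 0.28 FPKM. Library 3 was low: its value equals about 3 fragments, against about 15 and 23 in libraries 1 and 2. Its counting interval, 0.0586 to 0.830 FPKM, did not overlap those of library 1 (1.30 to 3.83) or library 2 (1.96 to 4.64).

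Library 2 was thus 11.2 times library 3 in Alas2 (exact 95% counting interval 3.38 to 58.2), and library 1 was 8.5 times library 3 (2.40 to 45.8). The SD of log2(FPKM + 1) of Alas2, 0.904, exceeded that of 96.0% of the 4134 rows with a mean of 1 to 5 FPKM. The adult globin sum was 399 and 339 times Alas2 in libraries 1 and 2, and 3160 times in library 3. The span of Alas2 overlaps Apex2, a DNA repair gene on the other strand, which was at 1.86, 1.55 and 1.00 FPKM. Whether counting used strand is not given, so reads of the 2 genes may not be separated.

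Slc4a1, the band 3 anion exchanger gene of the red cell membrane, spans 102348820 to 102365281 of chromosome 11 (minus strand). It was at 0.13, 0 and 0.16 FPKM, equal to about 2, 0 and 4 fragments over a main transcript of 4545 bases. Klf1, the gene of the transcription factor that drives adult beta globin, lies on chromosome 8 from 84901982 to 84905291 and was listed at 0 in all 3 libraries. At these depths 3 fragments of Klf1 equal 0.653, 0.559 and 0.395 FPKM, so a lower level could have been missed in a single library. Both genes were below the minimum for a test.

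Haem synthesis itself was represented by its general enzymes. Alas1, the housekeeping form of the first enzyme, was at 32.55, 28.95 and 42.98 FPKM and exceeded Alas2 by 13.7, 9.25 and 154 times in the 3 libraries, the last resting on the 3 fragments of Alas2 (counting interval 51.8 to 734). Alas2 minus Alas1 was -3.76 log2 units (SE 0.259) and passed limma's moderated test (adjusted p = 1.11e-25), as did 53.5% of 13336 rows. It did not pass when the row's own spread was used (SE 0.685, limma adjusted p = 0.0711 without moderation). Without library 3 the difference was -3.08 (limma adjusted p = 0.000387), and with a pseudocount of 0.1 in place of 1 it was -4.57. Alas2 was lower in 3 of 3 libraries.

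Other enzymes of the pathway followed Alas1 in level. Fech, which inserts iron into the porphyrin, was at 28.2 ± 3.60 FPKM, Urod at 27.0 ± 0.999, Uros at 22.8 ± 2.77 and Alad at 15.7 ± 3.74. Cpox and Ppox, the last oxidases of the pathway, were at 13.2 ± 2.33 and 8.89 ± 1.03 FPKM. All 7 enzymes listed were lower than Hbb-bs by more than 2-fold in limma's moderated test, near the 96.5% over all rows, with a median difference of -4.58 log2 units against -5.65 over all rows.

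**Figure D3:**
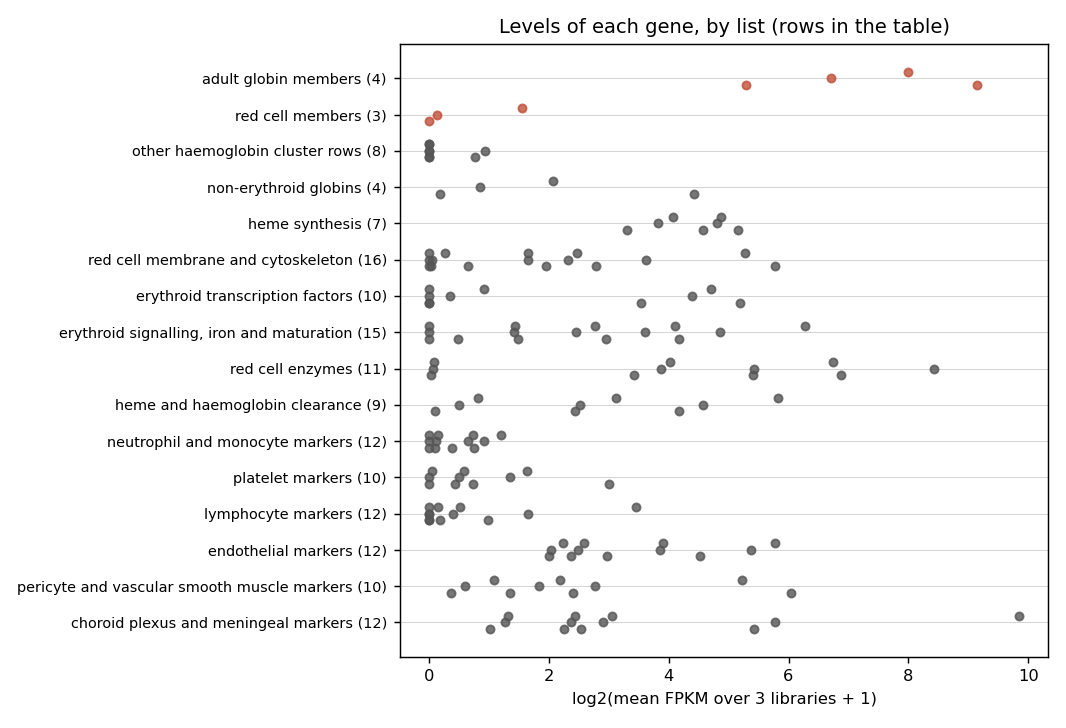
Each point is 1 gene's level, log2(mean FPKM over 3 libraries + 1), by gene list, with the number of rows found in the table in brackets; members are in red. The embryonic globins, Klf1 and genes such as Gata1, Rhag and Trim10 sit at 0, and the adult globins Hbb-bs and Hba-a2 reach means of 569 and 255 FPKM.

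The other rows of the globin clusters were at or near 0. The embryonic genes Hba-x, Hbb-y and Hbb-bh1 were listed at 0 in all libraries, as were Hbb-bh0, Hbb-bh2 and Hbb-bh3. The theta-like alpha cluster genes Hbq1a (0, 0.68 and 1.45 FPKM) and Hbq1b (0.89, 0.77 and 1.10 FPKM) equalled about 0 to 3 fragments each. Hbb-b1 and Hbb-b2, names of the beta genes in other mouse strains, were not analysed here. Globins with no part in haemoglobin were lower than Hbb-bs: cytoglobin, Cygb, stood at 20.5 ± 2.25 FPKM, neuroglobin, Ngb, at 3.19 ± 0.636, Mb, the myoglobin gene, at 1.86, 0 and 0.57, and Adgb at 0.18, 0.07 and 0.15. Cygb and Ngb passed the minimum and differed from Hbb-bs by -4.72 and -7.09 log2 units by limma.

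Several genes known from nucleated red cell precursors were listed at 0, as were 20331 (51.6%) of all rows in the table. Among transcription factors, Gata1, Nfe2, Gfi1b and Hemgn were listed at 0 in all libraries, 4 of 10 in the list. The highest of that list were Bcl11a (35.3 ± 2.39 FPKM), which neurons also use, the adaptor gene Ldb1 (25.1 ± 1.15) and Lmo2 (19.9 ± 3.49). Among 16 membrane and cytoskeleton genes, Rhag, Kel and Epb42 were listed at 0, and the highest were Dmtn (53.8 ± 3.11 FPKM), Add2 (37.6 ± 2.38) and Sptb (11.3 ± 0.349), cytoskeletal genes that neurons also express. For Gata1, 3 fragments equal 0.503, 0.436 and 0.307 FPKM.

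In the list of erythroid signalling, iron and maturation genes, Trim10, Trim58 and Tspo2 were listed at 0, and the mitophagy receptor gene Bnip3l (76.7 ± 18.4 FPKM), the transferrin receptor gene Tfrc (28.1 ± 3.60) and the glycine carrier gene Slc25a38 (17.1 ± 0.605) led. Red cell enzymes were led by peroxiredoxin 2, Prdx2, at 343 ± 15.4 FPKM, Gpx1 at 116 ± 22.5 and the carbonic anhydrase gene Car2 at 106 ± 21.7. Car1, the erythroid carbonic anhydrase gene, was at 0, 0 and 0.18 FPKM. Over the 3 lists of transcription, membrane, and signalling genes, 4 of 4, 9 of 9 and 11 of 11 rows tested were lower than Hbb-bs in limma's moderated test. Of the enzymes 7 of 8 were, with Prdx2 not called, and over all rows 96.5% were lower.

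Genes that clear haem and haemoglobin were led by the haem oxygenase gene Hmox2 at 55.5 ± 7.58 FPKM, the haemopexin receptor gene Lrp1 at 22.9 ± 3.14 and the biliverdin reductase gene Blvra at 17.1 ± 2.18. The inducible Hmox1 was at 4.11, 4.17 and 4.99 FPKM, and Cd163, the haemoglobin scavenger receptor gene of macrophages, at 0.52, 0.97 and 0.79. All 6 of the 9 genes in this list that were tested were lower than Hbb-bs by limma, again near the 96.5% of all rows.

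Markers of other blood cells were low beside the globins, as nearly all rows were. In the neutrophil and monocyte, platelet and lymphocyte lists, 1 of 1, 3 of 3 and 2 of 2 rows tested were lower than Hbb-bs. Of all rows tested by limma 96.5% were lower, and 51.6% of all rows in the table were listed at 0. The 12 neutrophil and monocyte markers summed to 3.23 to 6.35 FPKM over the 3 libraries, with Ltf, Retnlg and Elane listed at 0 and Plac8 (1.30 ± 0.817), S100a8 (0.88 ± 0.775) and Mpo (0.687 ± 0.740) highest. The 10 platelet markers summed to 11.4 to 13.9 FPKM, of which Pf4, which brain macrophages can also express, made up 7.04 ± 0.913, Gp1bb 2.11 ± 0.774 and Itga2b 1.56 ± 1.31, and Ppbp was listed at 0. The 12 lymphocyte markers summed to 13.6 to 14.6 FPKM, led by Ighm (9.997 ± 0.146), Igkc (2.13 ± 0.391) and Cd79b (0.967 ± 0.310), with Cd3e, Cd3d, Cd3g, Cd8a and Nkg7 at 0. The part of blood in the globin levels was not tested, and in bulk tissue fewer cells of a type and less RNA per cell cannot be told apart.

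Across libraries Alas2 varied more than the globins. In FPKM its order of libraries was that of Hbb-bs and the globin sum: 2 was the highest, then 1, then 3. The order of the globin sum depends on the scaling. Division by median-of-ratios factors (1.01, 1.00 and 0.995 in libraries 1, 2 and 3) kept the order 2, 1, 3. Each factor is the median over genes of the library's ratio to the gene's geometric mean. As a share of all FPKM the globin sum was 0.128%, 0.129% and 0.139% in libraries 1, 2 and 3, highest in library 3. Without Bc1 and the mitochondrially encoded rows the shares were 0.156%, 0.169% and 0.141%. The SD of log2(FPKM + 1) was 0.0643 for Hba-a1, 0.0995 for Hba-a2, 0.153 for Hbb-bt and 0.197 for Hbb-bs, against a median of 0.124 over the 3163 rows whose mean reached 30 FPKM. Of those rows, 17.5% had a smaller SD than Hba-a1, 36.3% than Hba-a2, 63.9% than Hbb-bt and 78.8% than Hbb-bs. The highest library was 2 for Hbb-bs, Hbb-bt, Hba-a1 and Alas2, and 1 for Hba-a2. In library 3 the deviation of Alas2 from its own mean was -1.03 log2 units, while the 4 globins lay between -0.17 and 0.06 of theirs.

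Vessel and choroid plexus markers are given beside this because blood lies in both. The 12 endothelial markers summed to 164, 182 and 176 FPKM in libraries 1, 2 and 3, with Cldn5 (54.0 ± 1.64), Ly6c1 (40.6 ± 7.06) and Slc2a1 (21.9 ± 4.502) highest. The 10 pericyte and smooth muscle markers summed to 105, 134 and 125 FPKM, led by Rgs5 (64.9 ± 7.29), Vtn (36.5 ± 3.98) and Tagln (5.84 ± 2.45). In FPKM, library 2 was the highest in both sums, as in the globin sum, but the lowest differed: library 1 for the vessel sums and library 3 for the globins. These orders hold for FPKM as deposited, and that of the globin sum changes when it is taken as a share of all FPKM.

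The 12 choroid plexus and meningeal markers summed to 507, 1218 and 1425 FPKM, led by Ttr (919 ± 471), Igf2 (53.7 ± 7.25) and Dcn (42.0 ± 7.15). Ttr carried the low sum of library 1: the other 11 markers summed to 115, 147 and 130 FPKM. Without Ttr, library 2 was the highest and library 1 the lowest, whereas the globin sum in FPKM was lowest in library 3. The part of these cell types in the globin values was not tested.

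**Figure D4:**
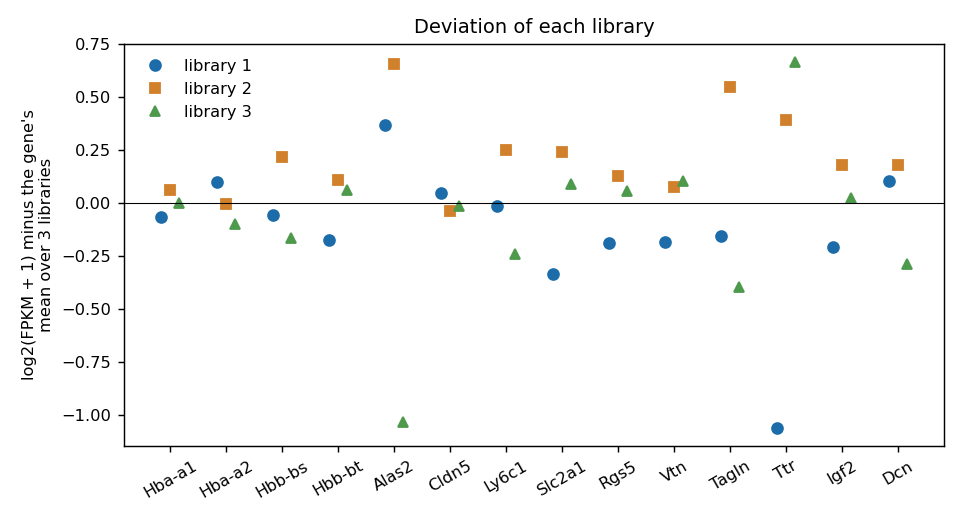
Deviation of each library, log2(FPKM + 1) minus the gene's mean over 3 libraries, for the adult globins, Alas2 and the 3 highest rows of the endothelial (Cldn5, Ly6c1, Slc2a1), pericyte and smooth muscle (Rgs5, Vtn, Tagln) and choroid plexus and meningeal (Ttr, Igf2, Dcn) lists. Globin points lie within -0.17 to 0.22, Alas2 falls to -1.03 in library 3 and Ttr to -1.06 in library 1, and the other vessel and choroid plexus genes lie within -0.40 to 0.55.

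The genes whose profile over the 3 libraries was most like that of the globins were found by the distance between centred log2(FPKM + 1) values, over 9196 other rows whose mean reached 5 FPKM. The mean globin profile was -0.05, 0.10 and -0.05 in libraries 1, 2 and 3. The nearest rows were Rgs7bp, Hax1, Itsn1, Fkbp15, Homer2, Tbc1d14, Mtfmt and Ndufa5, at distances of 0.00376 to 0.00671. Rgs7bp, for example, was at 20.09, 22.39 and 20.14 FPKM. With 3 libraries and so flat a profile, 1329 rows (14.5%) were nearer to it than a row with no variation would be, at 0.119, so the likeness describes these 8 rows and no more.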

How the data were processed

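The authors deposited 1 table of FPKM values, named so per the file headers, in which each library has a column whose number is that of the sample title. Bowtie2 and GRCm38 (mm10) are named in the submitters' processing notes, but the sources used here give neither the counting tool, nor the annotation, nor any version. FPKM were used as deposited. Tests used log2(FPKM + 1), which understates differences of low genes, on rows with a mean of at least 1 FPKM. They were run with limma 3.58.1 (treat, two-sided, null of 1 log2 unit) in R 4.3.3. The code was also run on simulated data, but with a constant reference. That run could not show the effect of a reference row shared by all differences. Calls were made at an adjusted p under 0.05.

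Depth was fitted to genes with 1 GENCODE M21 transcript so that low values became whole fragments: 93.7%, 92.7% and 92.0% of values worth up to 4 fragments came within 0.15 of a whole number. The fit took 274, 220 and 232 bases off each transcript length, so fragment numbers of the short globin transcripts are rough. Without molecular identifiers reads need not be independent molecules, so intervals and floors cover counting error alone. Coordinates and starts are from RefSeq (GRCm38.p6), and transcripts and exons from GENCODE M21. Python 3.11.15 with scipy 1.17.1 was used.

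The members and lists were chosen with earlier results of these data known. Named genes are the members, Alas1, the 3 highest rows of each list, every row of the haem synthesis, globin cluster and other globin lists, the 8 nearest profiles and the 2 rows on either side of the globin sum by mean. Others named are rows listed at 0, and Hmox1, Cd163, Car1 and Apex2, chosen after their values were seen. Some items of the lists are not reported here. The alternatives tried were the pseudocount, the minimum level, the null, the scaling, leaving out each library and, added later, unmoderated spread, also with a null of no difference.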

Additional observations from a re-analysis of the deposited data

How the results depend on the processing

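With another pseudocount or 1 library left out, 0 of 28 differences changed sign. Neither step could change a sign, because each difference had the same sign in all 3 libraries. This count therefore says nothing about how stable the differences are. The count of genes higher than Hbb-bs was 49 in the test against 2-fold and 113 against no difference. In the latter test the alpha sum minus the beta sum, -0.75, passed (limma adjusted p = 0.000153, or 0.0173 without moderation), as did Hba-a2 minus Hbb-bs. Hba-a1 minus Hba-a2 ranged from -1.35 to -1.21 when 1 library was left out, and its call was lost without library 1 or library 2. Alas2 minus Alas1, -3.76, was not called with the row's own spread (adjusted p = 0.0711). The summed adult globins were 1320 on a scale that sums to 1000000 per library in place of 965 FPKM. That scale also changed the order of libraries, whereas division by median-of-ratios factors kept the order (mean 963 ± 86.5). As a share of all FPKM the globins were 0.128%, 0.129% and 0.139% in libraries 1, 2 and 3. Library 3, the lowest in FPKM, was thus the highest. Values of Alas2 in library 3, Slc4a1 and Klf1 rest on 0 to 4 fragments and are limited by depth. Alas2 has no value among rows with a mean of at least 5 FPKM. No paired analysis was possible because all samples belong to 1 group.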
